A study of Mus musculus with 30 samples.

Results

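Chemokine ligands are small secreted proteins that steer leukocytes through G protein-coupled receptors. They were taken here as every gene whose name consists of Ccl, Cxcl, Xcl or Cx3cl followed by a number and at most 1 letter, which gave 39 of 55401 genes. Of these, 31 reached a mean of at least 5 CPM (a gene's count scaled to the total of its library) in at least 1 of the 6 groups and are described. The name pattern used no measured value. It leaves out Pf4 and Ppbp, the chemokines of platelets, which are followed separately.

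All 30 libraries came from tumours of 4T1, a mouse mammary carcinoma line labelled with green fluorescent protein, grown in mice given as wild-type. Mice received control IgG1 (the CTRL groups) or C269, an antibody against extracellular NAMPT, a cytokine-like form of an NAD-synthesising enzyme, dosed at 2.5 mg/kg on 2 occasions each week over 1 month. From each arm there were 5 libraries of sorted 4T1 cells, 5 of CD4+ T cells and 5 of CD8+ T cells, the T cells taken with magnetic beads. The labels give no age, do not state the mouse strain, and do not say whether the 5 libraries of a group came from 5 animals. Every p-value therefore rests on the spread among libraries, which may be technical.

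Column numbers name the libraries here, 1 to 5 for 4T1 CTRL, 6 to 10 for 4T1 C269, 11 to 15 for CD4 CTRL, 16 to 20 for CD4 C269, 21 to 25 for CD8 CTRL and 26 to 30 for CD8 C269. They held 2005579 to 5176494 counts assigned to genes. Libraries 9 and 10 stood apart from the other 4T1 libraries. Muc2, the main mucin of intestinal goblet cells, read 4408 and 5348 CPM there and at most 10.7 in the other 8. Xist, expressed from the inactive X chromosome of female cells, read 0.449 and 0.193 CPM there and at least 528 in the other 8. Ddx3y, a gene of the Y chromosome, read 0 CPM in every group but 4T1 C269 (mean 31.9, SD 43.8, maximum 84.2). The origin of libraries 9 and 10 was not tested. Results in 4T1 C269 are therefore given with and without these libraries, a choice made after the data were seen. The bead-selected groups carried their labelled co-receptors: Cd4 read 71.3 CPM or more in each CD4 CTRL library and at most 12.2 in each CD8 CTRL library, and Cd8a at least 357 and at most 19.7. The 4T1 fraction was not enriched for its own markers over CD4: the 5 epithelial genes followed (Epcam, Krt8, Krt18, Krt19 and Krt14) summed to 199 to 533 CPM in 4T1 CTRL, 194 to 305 in CD4 CTRL and 18.7 to 79.0 in CD8 CTRL. Of these 5, 0 passed between 4T1 and CD4 CTRL (12.7% of all genes) and 4 were higher in 4T1 than in CD8 CTRL (22.7%). The fraction is called 4T1 below as its label gives it. Marker genes of other cells were present in all fractions: the 6 neutrophil genes followed here summed to 3849 to 13600 CPM in 4T1 CTRL, 568 to 869 in CD4 CTRL and 257 to 503 in CD8 CTRL. In such bulk samples, fewer cells of a type and less RNA per cell cannot be told apart.

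Chemokines fall into families by the spacing of their first cysteines, and each family has its receptors. CXC ligands such as Cxcl1 and Cxcl2 bind CXCR2 and recruit neutrophils, Cxcl9 to Cxcl11 are induced by interferon and draw activated T cells and natural killer cells through CXCR3, and the CC ligands Ccl2 and Ccl7 mobilise monocytes through CCR2. Myeloid cells, fibroblasts and tumour cells make most of them, whereas Ccl5, Xcl1 and Ccl1 are also products of activated lymphocytes. Extracellular NAMPT is known as an inflammatory mediator, which puts the inflammatory ligands among the transcripts of interest in an experiment that neutralises it.

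The members lie mostly in 2 chromosomal groups. By the GENCODE M21 annotation (GRCm38), with which 38 of the 39 gene starts in the deposited tables were identical, 12 lie on chromosome 11 and 11 on chromosome 5. Cxcl5 (from 90759360), Cxcl3, Cxcl15, Cxcl1 and Cxcl2 (up to 90905938) lie in this order on chromosome 5. Cxcl9, Cxcl10 and Cxcl11 lie between 92321347 and 92365485 on the same chromosome. Only members were placed, so other genes between them are not given. Ccl2, Ccl7, Ccl11, Ccl12, Ccl8 and Ccl1 start between 82035571 and 82176657 on chromosome 11, and Ccl5, Ccl9, Ccl6, Ccl3 and Ccl4 between 83525778 and 83662584. All are annotated as protein coding except Cxcl11, which the annotation lists as a polymorphic pseudogene. The model of Ccl1 runs to 82305690 because of 1 long transcript, so its counts need not all come from the short one.

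The stretches of 250 bases before the start sites of 5 members are shown because they carry a sequence feature shared by 3 of the 4 neutrophil attractants (the stretch before Cxcl5 was not analysed here) and set it beside the CXCR3 ligands. They are RefSeq sequences of GRCm38.p6, written 5′ to 3′ toward the gene. The start site follows the last base. Cxcl1 lies at chr5:90890995-90891244, plus strand, Cxcl2 at chr5:90903649-90903898, plus strand, Cxcl3 at chr5:90785851-90786100, plus strand, Cxcl10 at chr5:92348890-92349139, minus strand and Cxcl9 at chr5:92328080-92328329, minus strand. Capitals mark matches to an NF-kB motif, to the core of the interferon-stimulated response element (GAAA, any 2 bases, GAAA) or to AP-1 (TGANTCA), each searched on both strands.
Cxcl1: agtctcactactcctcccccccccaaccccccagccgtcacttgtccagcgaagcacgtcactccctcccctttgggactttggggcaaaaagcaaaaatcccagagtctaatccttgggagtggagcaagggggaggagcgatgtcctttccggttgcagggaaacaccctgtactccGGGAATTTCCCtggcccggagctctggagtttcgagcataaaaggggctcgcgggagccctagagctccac
Cxcl2: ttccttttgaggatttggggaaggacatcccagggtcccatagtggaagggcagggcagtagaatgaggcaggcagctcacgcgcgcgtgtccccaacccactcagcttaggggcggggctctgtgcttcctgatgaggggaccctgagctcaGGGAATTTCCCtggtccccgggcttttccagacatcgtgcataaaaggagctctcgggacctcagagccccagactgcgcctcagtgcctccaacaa
Cxcl3: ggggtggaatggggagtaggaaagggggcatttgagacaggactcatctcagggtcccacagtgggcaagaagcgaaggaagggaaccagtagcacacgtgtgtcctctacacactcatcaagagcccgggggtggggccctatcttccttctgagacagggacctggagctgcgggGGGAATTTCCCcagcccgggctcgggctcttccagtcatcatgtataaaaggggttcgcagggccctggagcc
Cxcl10: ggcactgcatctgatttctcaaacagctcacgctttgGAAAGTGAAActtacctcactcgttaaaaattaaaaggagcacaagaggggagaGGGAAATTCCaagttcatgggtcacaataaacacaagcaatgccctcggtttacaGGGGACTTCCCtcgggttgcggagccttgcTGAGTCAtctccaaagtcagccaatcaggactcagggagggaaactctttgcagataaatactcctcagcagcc
Cxcl9: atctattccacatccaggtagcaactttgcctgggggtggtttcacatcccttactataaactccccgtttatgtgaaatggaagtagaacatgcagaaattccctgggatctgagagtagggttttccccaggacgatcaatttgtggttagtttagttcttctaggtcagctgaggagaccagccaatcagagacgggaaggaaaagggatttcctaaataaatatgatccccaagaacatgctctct
Cxcl1, Cxcl2 and Cxcl3 hold the same 11 capital letters, which are 2 overlapping NF-kB matches beginning 71, 97 and 73 bases before the start. Cxcl10 holds the element GAAAGTGAAA at 213 bases, NF-kB matches at 159 and 104 bases, the second of them again doubled, and an AP-1 match at 74 bases. Cxcl9 holds no match to these motifs as searched in this window, nor to the GAS motif TTCNNNGAA. This says nothing of looser matches or of the factors themselves. Promoter entries existed for 28 of the 39 members (34 entries), and 7 entries held an NF-kB match, those of Ccl1, Ccl20, Ccl9, Cxcl1, Cxcl10, Cxcl2 and Cxcl3. Among all 32851 mouse entries, 7.25% held such a match, 2.98% the interferon element core, 7.02% the GAS motif and 6.75% the AP-1 motif. Of the members' entries, 3 held the interferon element core (Cxcl10, Ccl19 and Cxcl14), 2 the GAS motif (Ccl17 and Cxcl14) and 4 the AP-1 motif.

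The first question was which fraction of control tumours holds the transcript of each ligand. Cxcl1, Cxcl2, Cxcl3, Cxcl10, Cxcl12, Cxcl14, Ccl2, Ccl3, Ccl4, Ccl6, Ccl7, Ccl9 and Ccl11 were higher in the 4T1 fraction than in either T cell fraction, while Ccl5 and Xcl1 were the ligands higher in CD8+ than in CD4+ T cells. Against CD4 CTRL, 13 of 29 tested members were higher in 4T1 CTRL and 0 lower, where 12.7% of all 13201 tested genes passed, 7.01% higher in 4T1 and 5.71% lower. Against CD8 CTRL, 19 were higher in 4T1 and 1, Ccl5, was lower, where 40.6% of all genes passed (22.7% higher and 17.9% lower). Between the T cell fractions, 2 members were higher in CD8 CTRL and 3 lower, where 12.6% of all genes passed (3.47% higher and 9.09% lower). These are adjusted p under 0.05 in edgeR's quasi-likelihood test with Benjamini-Hochberg adjustment over all tested genes, in 1 fit of the 15 control libraries. The 3 comparisons share their groups. The groups did not overlap for 8 members, all higher in 4T1 than in CD4 (2.82% of all genes were higher and 7.58% lower), for 14 higher in 4T1 than in CD8 (13.7%) and 1 lower (13.9%), and for 2 higher (5.61%) and 3 lower (11.6%) in CD8 than in CD4. In a fit of the CD8 and CD4 CTRL libraries alone, a choice made after the data were seen, 10 of 28 members passed (23.3% of all genes), 2 higher and 8 lower in CD8, the added ones being Cxcl14, Ccl8, Cxcl13, Cxcl1 and Cxcl10, each lower. The members' median difference was 1.27 on the log2 scale for 4T1 minus CD4, 1.96 for 4T1 minus CD8 and -0.56 for CD8 minus CD4, where the medians of all genes were -0.0034, 0.01 and -0.0048. For 4T1 minus CD4, 49.8% of all genes were above 0 and 50.2% below it, for 4T1 minus CD8 50.5% and 49.5%, and for CD8 minus CD4 49.8% and 50.2%.

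**Figure D1:**
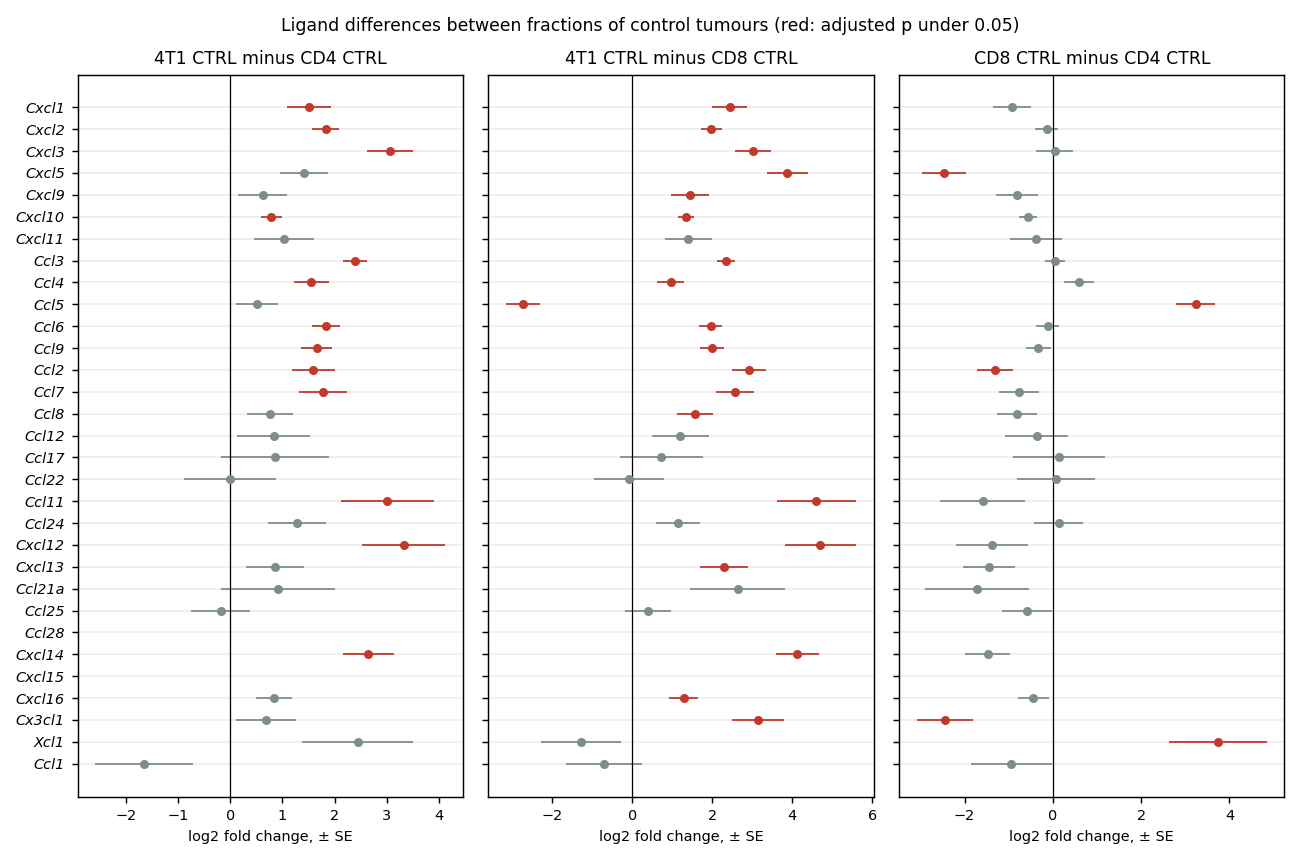
Log2 fold change (x axis, point) with its standard error (line) for each of the 29 members tested (rows) between fractions of control tumours, 5 libraries per group; red marks adjusted p under 0.05. Red points lie right of 0 for 13 members in the left panel and 19 in the middle panel, where Ccl5 alone is red left of 0, and in the right panel for Ccl5 and Xcl1.

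Of the neutrophil attractants, Cxcl1, Cxcl2 and Cxcl3 were higher in 4T1 than in both T cell groups and Cxcl5 than in CD8. Cxcl2 read 7163, 13050, 7092, 8429 and 7600 CPM in 4T1 CTRL libraries 1 to 5. It read 1841, 3222, 2844, 2591 and 2380 CPM in CD4 CTRL and 2210, 2225, 1275, 1546 and 3739 CPM in CD8 CTRL. Every 4T1 library lay above every T cell library, and the differences were 1.83, SE 0.26, adjusted p = 0.000234 against CD4 and 1.97, SE 0.26, adjusted p = 2.2e-05 against CD8 (edgeR, log2 scale, as for all differences below). Cxcl2 made up 39.7% to 61.5% of all ligand counts in 4T1 CTRL.

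Cxcl1 read 954, 2872, 1042, 789.9 and 3540 CPM in 4T1 CTRL. In CD4 CTRL it read 539.8, 772, 976, 542 and 597 CPM and in CD8 CTRL 314, 320.3, 208, 179 and 679.6 CPM. The 4T1 and CD4 libraries overlapped and the 4T1 and CD8 libraries did not (1.51, SE 0.43, adjusted p = 0.0284, and 2.44, SE 0.44, adjusted p = 0.000371). Libraries 2 and 5 were the high ones in 4T1 CTRL. The call against CD4 was lost without library 2, 5, 11, 12, 14 or 15, each left out alone (adjusted p = 0.0521 to 0.0846). Cxcl3 averaged 409.5 ± 236, 51.05 ± 20.98 and 49.8 ± 26.8 CPM (mean ± SD, n = 5) in the controls of 4T1, CD4 and CD8, the order used below, with differences of 3.06, SE 0.45, and 3.02, SE 0.45.

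Cxcl5, which shares the receptor CXCR2 with them, read 51.96, 207, 67.9, 63.97 and 198 CPM in 4T1 CTRL. CD4 CTRL read 14.8, 38.8, 70.7, 54.5 and 55.3 CPM and CD8 CTRL 13.6, 5.94, 2.69, 6.54 and 10.7 CPM. The CD8 libraries lay below all other control libraries. Cxcl5 was higher in 4T1 than in CD8 (3.88, SE 0.52, adjusted p = 2.44e-05) and lower in CD8 than in CD4 (-2.47, SE 0.50, adjusted p = 0.00285), and missed the threshold between 4T1 and CD4 (1.41, SE 0.46, adjusted p = 0.0515). It passed there with DESeq2 (1.48, adjusted p = 0.0169) and in edgeR without a filter on low counts (1.35, adjusted p = 0.0169). Among the control libraries, the markers of neutrophils moved with this group of ligands between fractions and not within 4T1 CTRL. All 6 neutrophil genes were higher in 4T1 CTRL than in either T cell group, with a median difference of 3.76 against CD4. Of all genes, 7.01% were higher against CD4 and 22.7% against CD8. None of the 6 was at 0 in a 4T1 CTRL library. Within 4T1 CTRL they summed to 13210, 10740, 13600, 6551 and 3849 CPM in libraries 1 to 5. Their sum was lowest in library 5, where Cxcl5 read 198 CPM, and Cxcl5 was lowest in library 1. The part of neutrophils in the ligand levels was not tested.

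The myeloid CC ligands Ccl3, Ccl4, Ccl6 and Ccl9 were higher in 4T1 than in CD4 and in CD8. Ccl3 and Ccl4, the macrophage inflammatory proteins, averaged 558 ± 187, 112 ± 24.9 and 109.7 ± 28.2 CPM and 574 ± 394, 202 ± 69.8 and 288 ± 72.6 CPM in the same order of control groups. Ccl3 gave the smallest p of all members in both 4T1 comparisons (2.39, SE 0.23, adjusted p = 4.6e-06 against CD4, and 2.35, SE 0.23, adjusted p = 1.45e-06 against CD8). Ccl4 was higher in 4T1 too (1.55, SE 0.34, and 0.96, SE 0.34), but the call against CD8 was lost without library 2, where Ccl4 stood at 1244 CPM (0.52, adjusted p = 0.143), and without library 21, 22, 23 or 24 (adjusted p up to 0.0702). Ccl6 and Ccl9, chemokines of mouse myeloid cells that act on CCR1, averaged 1404 ± 594, 414 ± 122 and 358 ± 129 CPM and 230.1 ± 110.3, 76.3 ± 19.9 and 57.2 ± 21.2 CPM, and their libraries did not overlap between 4T1 and either T cell group. Their differences were 1.83 and 1.66 against CD4, and 1.96 and 1.99 against CD8.

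Ccl5 was higher in CD8 than in either other fraction. This attractant of T cells and monocytes is stored by cytotoxic T cells. It read 997, 994, 1281, 1417 and 847 CPM in CD8 CTRL, against 70.8, 150, 97.2, 128 and 174 CPM in CD4 CTRL and 269.6, 181, 244, 55.7 and 48.8 CPM in 4T1 CTRL. No library of the other fractions reached the lowest CD8 library. The difference was 3.23, SE 0.44, adjusted p = 0.000102 for CD8 minus CD4 and -2.73, SE 0.43, adjusted p = 0.000101 for 4T1 minus CD8. Between 4T1 and CD4 it was 0.51, SE 0.41, adjusted p = 0.458.

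Xcl1, which attracts XCR1-bearing cross-presenting dendritic cells, read 176, 138, 196, 140 and 199.6 CPM in CD8 CTRL and 8.40, 13.5, 16.2, 11.5 and 17.7 CPM in CD4 CTRL. The ranges were far apart and the difference was 3.73, SE 1.11, adjusted p = 0.0342. The 4T1 CTRL libraries share that fit, and there Xcl1 read 154, 0, 162, 0.753 and 0 CPM. In the fit of the CD4 and CD8 libraries alone the difference was 3.74, SE 0.21, adjusted p = 9.22e-09, while leaving out any 1 CD4 or CD8 library from the 15 gave adjusted p between 0.0508 and 0.0827. In 4T1 CTRL, only libraries 1 and 3 held Xcl1 in quantity, and natural killer genes moved with it. The 5 natural killer genes summed to 176 and 197 CPM in these 2 libraries and to 19.1 to 36.1 in the other 3, where the defining receptor Ncr1 and Klrb1c were at 0. Klrk1, another gene of that list, read 31.0 and 28.5 CPM in libraries 1 and 3 and 29.4 and 34.9 in libraries 2 and 4. Genes of other cells were higher in the same libraries: T cell genes summed to 94.9 and 101 CPM against 3.26 to 28.96, B cell genes to 414 and 411 against 0.346 to 38.3, dendritic cell genes to 555 and 501 against 145 to 283, and red cell genes to 18080 and 19500 against 153 to 1051. In CD8 CTRL the natural killer list summed to 284 to 504 CPM with Ncr1 at 0 in all 5 libraries. The part of these cells in the Xcl1 level was not tested. Libraries 1 and 3 were also the most alike of all pairs within a group (a chi-square per gene of 5.19, where counting error alone gives about 1).

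In 4T1 CTRL the monocyte chemoattractants Ccl2 and Ccl7 were highest in library 5. Ccl8 was highest in library 2 (476 CPM) and Ccl12 in library 4 (225 CPM). Ccl2 averaged 659 ± 550.1, 234 ± 22.2 and 88.9 ± 43.2 CPM and Ccl7 377 ± 339, 117 ± 18.8 and 64.7 ± 38.4 CPM in the control groups of 4T1, CD4 and CD8. Both were higher in 4T1 (1.59, SE 0.41, and 1.78, SE 0.46 against CD4; 2.91, SE 0.43, and 2.56, SE 0.48 against CD8), and Ccl2 was lower in CD8 than in CD4 (-1.32, SE 0.41, adjusted p = 0.0411). Library 5 held 1608 CPM of Ccl2 and 956 of Ccl7, and without it the Ccl7 difference from CD4 was 1.05 with adjusted p = 0.0506, and that of Ccl2 0.91. Without library 15 the Ccl7 call was lost too (1.72, adjusted p = 0.0511). The call for Ccl2 between CD8 and CD4 was lost in 9 of 10 fits without 1 of their libraries (adjusted p up to 0.108). Ccl8, a relative of these ligands, averaged 225 ± 178, 138 ± 51.5 and 74.1 ± 22.2 CPM and was higher in 4T1 than in CD8 (1.57, SE 0.46, adjusted p = 0.0118). Ccl12, a mouse ligand of CCR2, averaged 63.2 ± 91.5, 36.6 ± 30.5 and 26.4 ± 12.6 CPM and passed in none of the 3 comparisons.

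Among the CXCR3 ligands, Cxcl10 passed against both T cell groups and Cxcl9 against CD8. Cxcl10 averaged 125 ± 41.4, 76.1 ± 15.4 and 48.9 ± 9.91 CPM in the 3 control groups and was higher in 4T1 (0.79, SE 0.21, adjusted p = 0.0183 against CD4, and 1.34, SE 0.21, adjusted p = 9.23e-05 against CD8). The call against CD4 was lost without library 11 or 15 (adjusted p = 0.0511 and 0.0507). Cxcl9 read 79.97, 83.05, 80.4, 382 and 94.5 CPM in 4T1 CTRL. In CD4 CTRL it read 39.7, 94.5, 59.7, 227 and 73.4 CPM, and in CD8 CTRL 30.7, 29.1, 61.7, 85.03 and 56.1 CPM. Libraries 4 and 14 stood above the rest of their groups, and the fractions overlapped. Cxcl9 was higher in 4T1 than in CD8 (1.44, SE 0.48, adjusted p = 0.0246), a call that was lost without library 4 (0.75, adjusted p = 0.141), 21 or 22 (adjusted p = 0.065 and 0.0651). Macrophage genes moved with these 2 libraries: the 8 macrophage and monocyte genes summed to 7250 CPM in library 4 and 3696 in library 14, the highest of each group, where the others ran from 1574 to 3888 and from 918 to 2001. Their part in the Cxcl9 level was not tested. Cxcl11 averaged 32.3 ± 26.4, 16.6 ± 12.3 and 11.97 ± 5.60 CPM and passed in none of the 3 comparisons by edgeR, though it was higher in 4T1 than in CD8 with DESeq2 (1.42, adjusted p = 0.0436) and in edgeR without a filter (1.37, adjusted p = 0.0441).

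Stromal ligands were highest in library 5. Cxcl12, the CXCR4 ligand of fibroblasts and marrow stroma, read 114, 71.98, 119.6, 19.8 and 567 CPM in 4T1 CTRL, and averaged 19.4 ± 17.5 in CD4 CTRL and 7.21 ± 4.00 in CD8 CTRL (3.32, SE 0.80, and 4.70, SE 0.88). Cxcl14, a chemokine of epithelia and fibroblasts, averaged 161 ± 132, 27.9 ± 7.54 and 9.59 ± 6.90 CPM and was higher in 4T1 in both comparisons (2.65, SE 0.49, and 4.12, SE 0.54). Ccl11, the eotaxin that acts on CCR3, averaged 68.2 ± 95.3, 9.22 ± 12.6 and 2.91 ± 1.55 CPM (3.01, SE 0.88, and 4.60, SE 0.99), and its call against CD4 was lost without library 5 (1.62, adjusted p = 0.182), without 12, 13, 14 or 15 (adjusted p up to 0.0844) and in the fit of the 2 groups alone (adjusted p = 0.0886). That library held 237 CPM of Ccl11, 567 of Cxcl12 and 395 of Cxcl14. Fibroblast genes moved with them: the 6 genes summed to 53430 CPM in library 5 and to 3143 to 10790 in libraries 1 to 4, to 606 to 6062 in CD4 CTRL and to 329 to 891 in CD8 CTRL. Their part in the ligand levels was not tested.

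The remaining ligands were scarcer. Ccl24, the second eotaxin, averaged 47.3 ± 36.9, 19.96 ± 3.92 and 20.8 ± 16.2 CPM, and the CCR4 ligands Ccl17 and Ccl22, which draw regulatory and type 2 helper T cells, averaged 9.76 ± 11.4, 5.55 ± 4.47 and 5.78 ± 3.51 CPM and 20.4 ± 17.4, 22.6 ± 20.3 and 22.5 ± 19.2 CPM. None of these 3 passed. The membrane-anchored ligands are Cxcl16, which binds CXCR6, and Cx3cl1, fractalkine. Cxcl16 averaged 182 ± 109.6, 107 ± 57.7 and 73.1 ± 18.4 CPM and was higher in 4T1 than in CD8 (1.28, SE 0.36). Cx3cl1 averaged 19.9 ± 11.8, 13.2 ± 7.29 and 2.13 ± 2.09 CPM, higher in 4T1 than in CD8 (3.13, SE 0.65) and lower in CD8 than in CD4 (-2.45, SE 0.64, adjusted p = 0.0161). Cxcl13, the B cell attractant, averaged 23.5 ± 23.3, 13.9 ± 1.92 and 4.78 ± 3.11 CPM (2.29, SE 0.60 for 4T1 minus CD8). Ccl21a, a ligand of CCR7, averaged 9.23 ± 7.95, 5.46 ± 6.34 and 1.54 ± 1.94 CPM and Ccl25, a ligand of CCR9, 4.30 ± 3.23, 5.13 ± 3.05 and 3.22 ± 0.314 CPM; neither passed. Ccl1, the CCR8 ligand, averaged 1.41 ± 1.64, 5.34 ± 1.60 and 2.65 ± 1.74 CPM and did not pass either. Ccl28 had no count in any of the 15 control libraries and Cxcl15 averaged 0.261 ± 0.385, 1.85 ± 1.77 and 0 ± 0 CPM, and neither was tested in the fit of the control libraries.

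Compared between genes, levels need the length of the transcript. Per kilobase of exon, Cxcl2 stood first in 4T1 CTRL at 4191 CPM, before Cxcl1 at 981, Ccl4 at 869, Ccl6 at 782 and Ccl3 at 729. In CD4 CTRL, Cxcl2 at 1246 stood before Cxcl1 at 366 and Ccl4 at 306. In CD8 CTRL, Ccl5 at 1153 and Cxcl2 at 1063 led, before Ccl4 at 437 and Xcl1 at 324. The order of neighbours was not tested, and the group SDs of Cxcl2 and Ccl5 in CD8 CTRL were 956 and 234 CPM before division by length. Of the 8 members under 5 CPM in every group, Ccl21b, Ccl21d, Ccl26 and Ccl27b had no count in any library. Ccl21 and Ccl27 have near-identical gene copies whose reads the counting may have dropped or split, so the values of Ccl21a and Ccl27a are uncertain. Ccl19, Ccl20, Ccl27a and Cxcl17 had a few counts.

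**Figure D2:**
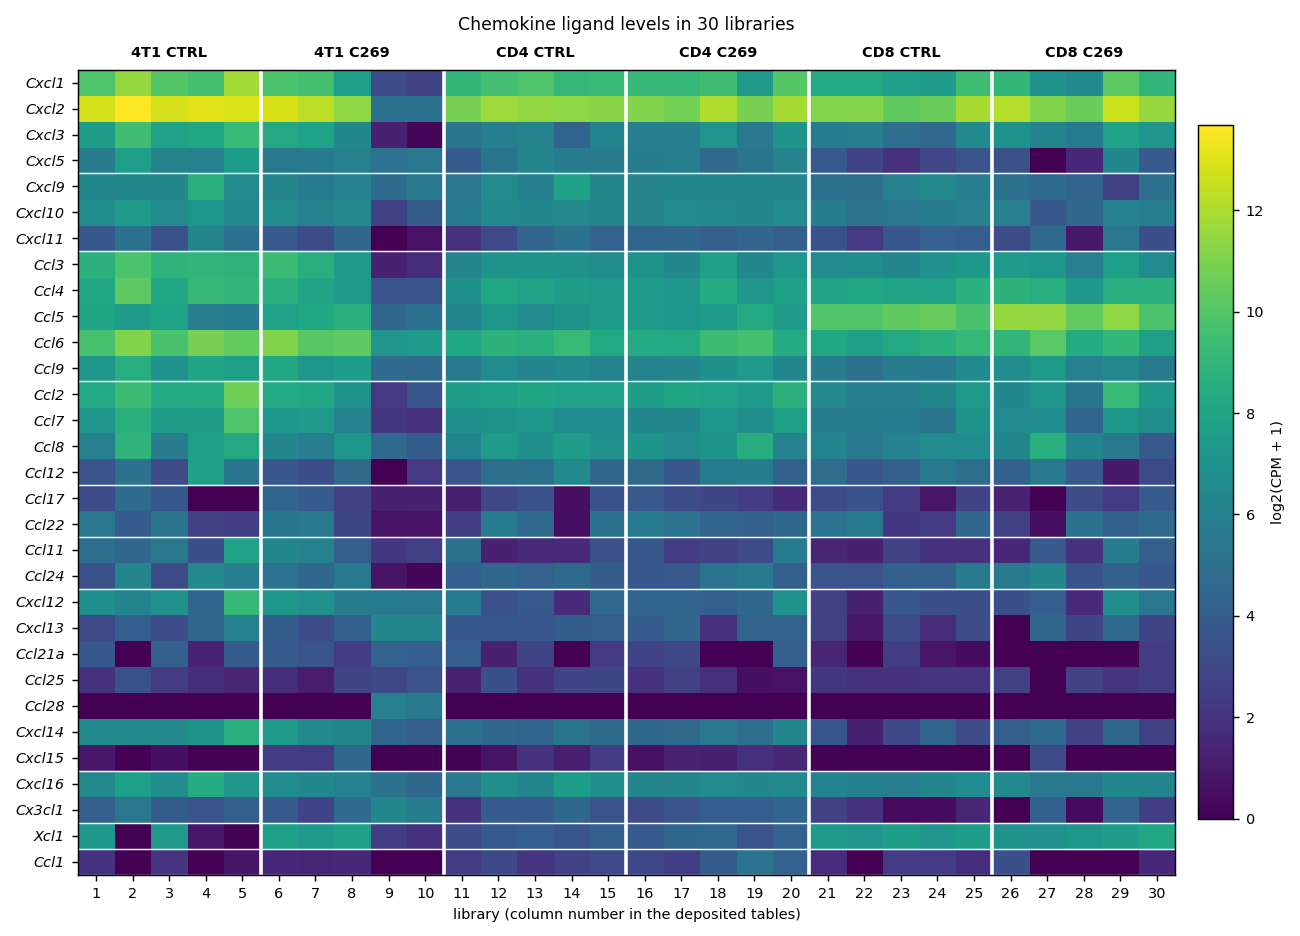
Level of the 31 described ligands (rows, ordered by role) in the 30 libraries (columns, by group), as log2(CPM + 1) on the colour scale. Cxcl2 is bright in all libraries but 9 and 10, Ccl5 is bright in the CD8 groups, Xcl1 is bright in CD8 and some 4T1 libraries, and Ccl28 has colour in libraries 9 and 10 only.

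The second question was what C269 did to these transcripts in the 4T1 fraction. No ligand passed the test. Most had lower values in C269, including all 4 neutrophil attractants, all 3 CXCR3 ligands and all 4 monocyte chemoattractants, and libraries 9 and 10 had summed ligand levels of 708 and 709 CPM against 6315 to 14080 in libraries 6 to 8. Of 28 members tested by edgeR with Benjamini-Hochberg adjustment, 0 passed (0.0% of all 12875 genes) and 5 had an unadjusted p under 0.05, as 12.1% of all genes did. The values were lower in C269 for 22 of 28, against 47.1% of all genes (52.9% were higher), with a median of -1.05 on the log2 scale against 0.04 for all genes. Without libraries 9 and 10, 21 of 30 were lower, against 49.9% of all 13750 genes, and the median was -0.42 against 0.0012. The CCR4 ligands turned to 2 of 2 on the higher side, 0 members passed (0.0% of all genes) and 5 had an unadjusted p under 0.05, against 5.46% of all genes. DESeq2 called 1 member with all libraries (Ccl28), where it called 5.64% of all genes, and 1 without these 2 (Cxcl15), where it called 0.583%. In the authors' deposited table no member was below an adjusted p of 0.05 in this comparison, and Cxcl16 had the smallest (0.066).

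Marker genes of several cell types moved with these values, and none of them passed by edgeR. The 5 epithelial genes were all higher in C269 (median 2.50), summing to 511, 331, 1407, 4559 and 4227 CPM in libraries 6 to 10 and to 199 to 533 in CTRL. The 6 fibroblast genes were all lower (median -1.20), summing to 14380, 9531, 4519, 1874 and 1037 CPM in C269 and to 3143 to 53430 in CTRL. Of the 8 macrophage and monocyte genes 6 were lower (median -1.22), summing to 1846, 1242, 3484, 349.6 and 232 CPM in C269 and to 1574 to 7250 in CTRL. Without libraries 9 and 10 these counts were the same and the medians were 1.23, -0.68 and -0.55. The part of these cells in the ligand values was not tested.

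**Figure D3:**
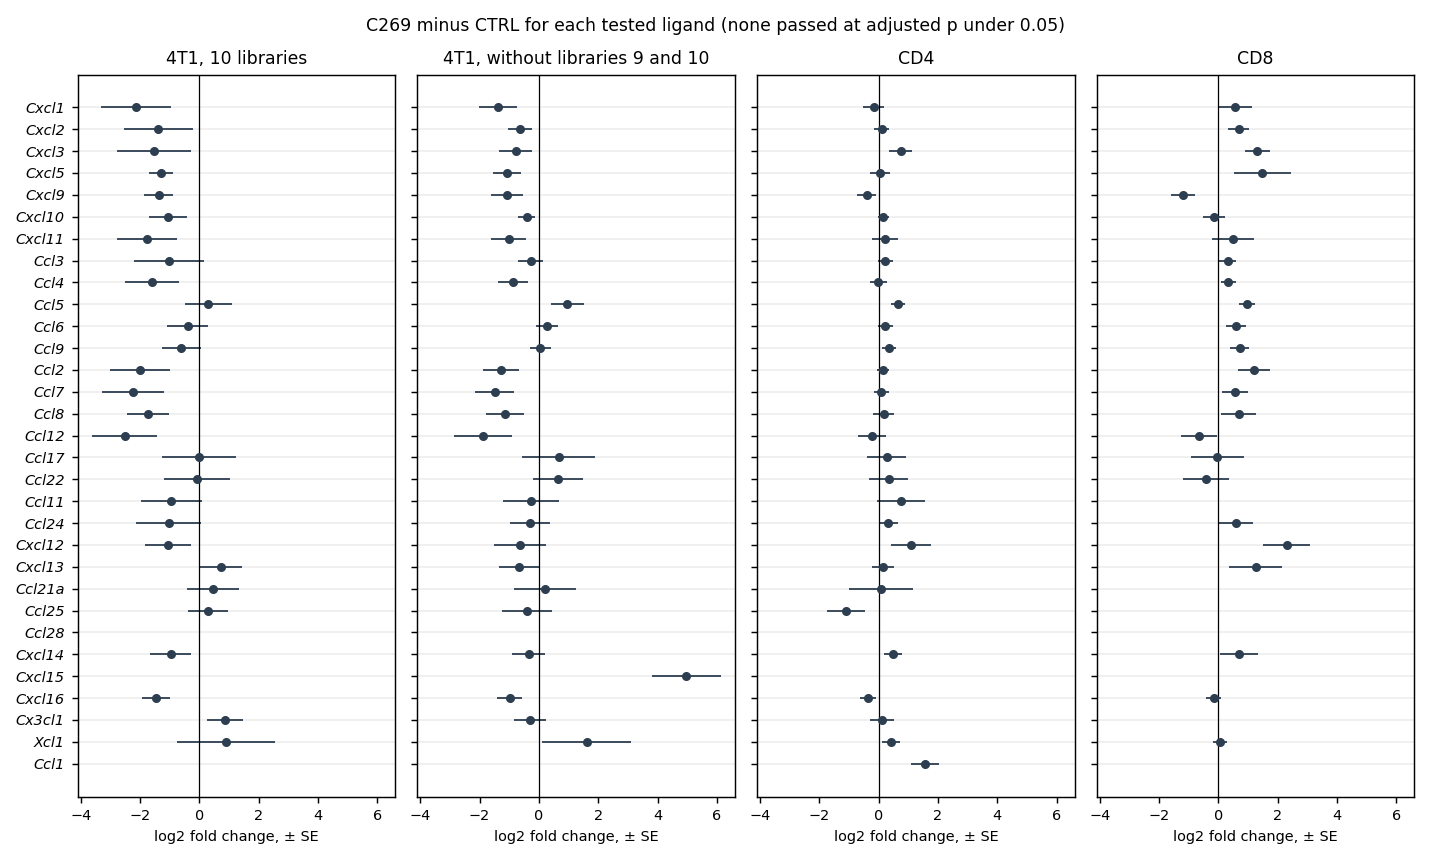
Log2 fold change, C269 minus CTRL (x axis, point), with its standard error (line) for each tested ligand (rows) in the 4 fits named above the panels. In 4T1 22 of 28 points lie left of 0 and in CD4 and CD8 23 of 29 and 18 of 24 lie right of it, and none passed at adjusted p under 0.05.

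Cxcl9 was the 1 member whose 4T1 groups did not overlap, lower in C269, as in 1.37% of all genes (0.924% were higher). It read 79.97, 83.05, 80.4, 382 and 94.5 CPM in CTRL and 73.1, 46.1, 66.1, 27.2 and 45.2 CPM in C269. The gap between the groups was narrow, from 80.0 down to 73.1 CPM, and library 4 lay far above. The log2 fold change was -1.37, SE 0.48, adjusted p = 0.359, -1.08, SE 0.53, without libraries 9 and 10, and -0.70 without library 4. In the exact permutation test of the mean log2(CPM + 1), p was 0.00794, the smallest that 5 against 5 can give, and 0.0952 after adjustment over 12 tests (4 ligands in 3 populations). Without libraries 9 and 10 the exact permutation p was 0.161.

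Cxcl5 and Cxcl16 had the smallest unadjusted p. Cxcl5 read 51.96, 207, 67.9, 63.97 and 198 CPM in CTRL and 44.2, 50.01, 61.2, 35.5 and 41.3 CPM in C269. The groups overlapped, with libraries 2 and 5 high in CTRL (-1.29, SE 0.41, adjusted p = 0.356; exact permutation p = 0.0159, adjusted 0.0952). Without libraries 9 and 10 the fold change was -1.09 (SE 0.47). Cxcl16, the membrane-bound ligand of CXCR6, read 86.8, 209, 102, 358 and 152 CPM in CTRL and 99.3, 81.98, 63.9, 34.8 and 23.8 CPM in C269 (-1.45, SE 0.47, adjusted p = 0.356; -0.99, SE 0.41, without libraries 9 and 10). The groups overlapped.

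Cxcl2 and Cxcl1 were nearly absent from libraries 9 and 10. Cxcl2 read 7424, 5023, 2624, 30.98 and 33.2 CPM in C269, with libraries 9 and 10 far below the other 3. Its fold change was -1.38, SE 1.16, with them and -0.63, SE 0.40, without them. Cxcl1 read 879, 796, 213, 7.63 and 5.41 CPM (-2.14, SE 1.18, with and -1.39, SE 0.65, without them). The neutrophil genes moved alongside: they summed to 12590, 9000 and 2916 CPM in libraries 6 to 8 and to 369 and 373 in libraries 9 and 10, and 5 of the 6 had lower values in C269. The exception was Ly6g, a surface protein of neutrophils, which read 282 and 278 CPM in libraries 9 and 10, most of their sums, and 7.84 to 26.7 in the other 8. S100a8, the abundant calcium-binding protein of neutrophils, read 27.4 and 36.3 CPM there and 1185 to 6076 in the other 8. Their part in the ligand values was not tested.

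Other ligands were high in libraries 9 and 10. Ccl28, a mucosal ligand of CCR10, read 61.1 and 46.0 CPM there and had no count in the other 28 libraries. Cx3cl1 read 78.6 and 53.9 CPM there and 5.74 to 40.5 in the other 8 4T1 libraries, and Cxcl13 read 79.2 and 71.7 CPM there and 7.06 to 63.7 in the others. The 3 goblet cell genes moved with them, summing to 4874 and 5775 CPM in these libraries and to 4.77 to 77.6 in the other 8. DESeq2's call of Ccl28 rested on these 2 libraries alone, and without them Ccl28 had no count in either group.

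The lymphocyte ligands Ccl5 and Xcl1 had edgeR fold changes above 0, though the mean log2(CPM + 1) of Ccl5 differed by -0.149. Ccl5 read 269.6, 181, 244, 55.7 and 48.8 CPM in CTRL and 236, 279.6, 414, 22 and 31.1 CPM in C269 (0.30, SE 0.79; 0.96, SE 0.55, without libraries 9 and 10). Xcl1 read 209.9, 165, 225, 4.49 and 2.90 CPM in C269 against 154, 0, 162, 0.753 and 0 in CTRL (0.90, SE 1.65; 1.61, SE 1.51, without libraries 9 and 10). With these 2 libraries out, the 3 remaining C269 libraries lay above all CTRL libraries, as in 2.15% of all genes, and the exact permutation p was 0.0357 (0.19 after adjustment over 12 tests). Natural killer genes moved with Xcl1, summing to 228, 161 and 726 CPM in libraries 6 to 8 and to 10.1 and 9.27 in libraries 9 and 10. T cell genes summed to 129, 90.8 and 181 CPM in libraries 6 to 8 and to 37.3 and 31.5 in libraries 9 and 10, and B cell genes to 169, 835 and 176 and to 64.7 and 67.8. Their part was not tested. Cxcl15, known from lung epithelium, read 4.74, 4.30, 23.5, 0 and 0 CPM in C269 and at most 0.855 in CTRL. Without libraries 9 and 10 it had a fold change of 4.97 (SE 1.15, adjusted p = 0.748) in edgeR and 5.12 (adjusted p = 0.00895) in DESeq2. Cxcl15 met the rule of 5 CPM only through 4T1 C269 (mean 6.51 CPM, at most 1.85 in any other group), with library 8 far above the rest. Its CTRL values lay near 0, where a fold change has little precision.

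Of the roles, the monocyte chemoattractants had the lowest median fold change (-2.11). Across libraries 6 to 10, Ccl2 ran from 3.82 to 332 CPM, Ccl7 from 2.90 to 159, Ccl8 from 15.3 to 147 and Ccl12 from 0 to 25.96. Their fold changes were -1.995, -2.23, -1.73 and -2.51 with all libraries and had a median of -1.38 without libraries 9 and 10. The myeloid ligands Ccl3, Ccl4, Ccl6 and Ccl9 ran from 1.35 to 664, 10.6 to 404, 141 to 2192 and 24.7 to 289 CPM. Cxcl3, Cxcl10 and Cxcl11 ran from 0.193 to 308, 5.39 to 106 and 0 to 21.8 CPM. The stromal ligands Cxcl12, Cxcl14 and Ccl11 ran from 45.01 to 148, 16.8 to 182 and 3.59 to 76.7 CPM. Ccl17, Ccl22 and Ccl24 ran from 1.35 to 21.2, 0.580 to 45.5 and 0.193 to 45.1 CPM, and Ccl1, Ccl21a and Ccl25 from 0 to 2.03, 4.16 to 18.4 and 1.02 to 10.2. In 18 of these 20 ligands libraries 9 and 10 held the 2 lowest C269 values, the exceptions being Ccl21a and Ccl25.

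The third question was the effect of C269 on CD4+ T cells. No ligand passed here either, and Ccl1 had the smallest p. Of 29 members tested, edgeR called 0 (0.0% of all 12393 genes) and DESeq2 0, and 2 had an unadjusted p under 0.05 in edgeR, against 5.62% of all genes. Values were higher in C269 for 23 of 29 members, against 50.8% of all genes (49.2% were lower), and their median was 0.16 on the log2 scale against 0.0047 for all genes. The groups overlapped for every member, where 0.379% of all genes were higher and 0.331% lower without overlap.

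Ccl1, which activated T cells secrete and which acts on CCR8, read 4.33, 6.77, 3.28, 5.25 and 7.07 CPM in CTRL and 6.91, 4.81, 15.3, 35.9 and 18.6 CPM in C269. Libraries 18 to 20 lay above all CTRL libraries and libraries 16 and 17 among them (1.56, SE 0.46, adjusted p = 0.743, unadjusted p = 0.004). Without library 19 the fold change was 1.09. The edgeR fit of all genes with any count, without a filter on low counts, put it at 1.55 with adjusted p = 0.0369. Ccl5 read 70.8, 150, 97.2, 128 and 174 CPM in CTRL and 161, 147, 175, 332 and 179.5 CPM in C269. The groups overlapped and library 19 was high (0.65, SE 0.24, adjusted p = 0.865; exact permutation p = 0.0476, adjusted 0.143). Without library 19 the fold change was 0.42.

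Cxcl3 read 38.96, 58.2, 67.9, 20.5 and 69.6 CPM in CTRL and 59.5, 55.9, 139, 42.9 and 134 CPM in C269 (0.74, SE 0.37, adjusted p = 0.883), with libraries 18 and 20 high. Cxcl9 read 69.1, 78.6, 77.6, 75.1 and 70.5 CPM in C269, within the CTRL range of 39.7 to 227 (-0.40, SE 0.32; exact permutation p = 0.762). Cxcl5 read 52.6, 58.5, 25.6, 37.9 and 68.2 CPM in C269 (0.04, SE 0.34; exact permutation p = 0.802). Xcl1 read 13.6, 22.9, 24.5, 10.2 and 18.9 CPM in C269 (0.41, SE 0.30; exact permutation p = 0.222). All 3 overlapped CTRL.

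Cxcl2 read 2172, 1785, 4264, 1879 and 3799 CPM and Cxcl1 578, 549.5, 707, 167 and 1082 CPM in CD4 C269, overlapping CTRL (0.10, SE 0.25, and -0.16, SE 0.35). Library 20 was the highest of the group in stromal ligands, with 131 CPM of Cxcl12, 79.0 of Cxcl14, 48.1 of Ccl11 and 435 of Ccl2, against at most 23.7, 39.6, 12.8 and 257 in libraries 16 to 19. The 6 fibroblast genes summed to 9643 CPM there and to 1696 to 2227 in the other 4, and their part was not tested. The other members of CD4 C269 ran from 82.5 to 224 CPM for Ccl3, 141 to 337 for Ccl4, 316 to 783 for Ccl6, 70.2 to 162 for Ccl9, 83.7 to 216 for Ccl7, 67.03 to 363 for Ccl8 and 11.9 to 55.4 for Ccl12. The CXCR3 ligands Cxcl10 and Cxcl11 ran from 69.4 to 97.05 and 16.5 to 21.8 CPM. Cxcl16 and Cx3cl1 ran from 72.9 to 96.3 and 7.71 to 21.3 CPM, and Cxcl13 and Cxcl15 from 2.67 to 22.01 and 0.532 to 2.74. Ccl17, Ccl22, Ccl24, Ccl21a and Ccl25 ran from 2.04 to 13.3, 16.96 to 49.5, 12.8 to 47.1, 0 to 17.2 and 0.499 to 5.04 CPM. All of these overlapped CTRL.

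The fourth question was the effect of C269 on CD8+ T cells. No ligand passed, Ccl5 and the neutrophil attractants had higher values in C269 (Cxcl5 only with library 29), and Cxcl9 had lower ones. Of 24 members tested, edgeR called 0 (0.00914% of all 10943 genes) and DESeq2 0, and 6 had an unadjusted p under 0.05 in edgeR (Ccl5, Cxcl3, Cxcl12, Cxcl9, Ccl9 and Ccl2), against 6.63% of all genes. Values were higher for 18 of 24 members, against 50.9% of all genes (49.1% were lower), with a median of 0.58 on the log2 scale against 0.0097 for all genes. All 4 neutrophil attractants were on the higher side, and both CCR4 ligands and 2 of 3 CXCR3 ligands on the lower. The groups overlapped for every member (0.603% of all genes were higher and 0.64% lower without overlap). Without a filter on low counts edgeR called 7 members (0.67% of all genes): Ccl5, Ccl2, Cxcl3, Cxcl12, Cxcl2 and Ccl11 higher and Cxcl9 lower.

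Ccl5 read 997, 994, 1281, 1417 and 847 CPM in CTRL and 2963, 2838, 1363, 2607 and 878 CPM in C269. Libraries 26, 27 and 29 stood above all CTRL libraries, library 28 among them and library 30 near the lowest (0.95, SE 0.27, adjusted p = 0.739, unadjusted p = 0.00297; exact permutation p = 0.0952, adjusted 0.229). Libraries 26, 27 and 29 also had more ribosomal RNA, 6.43% to 7.945% of counts, and fewer genes detected, 12208 to 15180, than libraries 28 and 30 (2.48% and 4.70%, 15677 and 15786 genes) and than CTRL (3.18% to 5.08%, 15775 to 17169 genes). Their part in the Ccl5 level was not tested. Left-out libraries moved the fold change between 0.80 and 1.15. In the fit without a filter it was 0.90, adjusted p = 3.97e-05. Cxcl3 read 46.05, 56.6, 30.2, 24.2 and 91.9 CPM in CTRL and 130.3, 70.8, 46.5, 231 and 139 CPM in C269, with libraries 26, 29 and 30 above all of CTRL (1.32, SE 0.42, adjusted p = 0.739).

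Cxcl12 rested more on 1 library. It read 5.12, 1.42, 11.7, 9.23 and 8.58 CPM in CTRL and 9.12, 15.96, 2.14, 106 and 41.02 CPM in C269 (2.31, SE 0.79, adjusted p = 0.739, and 1.24 without library 29). Library 29 was also the highest of CD8 C269 in Ccl2 (585 CPM), Ccl11 (52.4), Cxcl1 (1207), Cxcl2 (6335) and Cxcl5 (83.0). The fibroblast genes summed to 7569 CPM and the neutrophil genes to 1970 there, against 171 to 2539 and 381 to 688 in the other 4 libraries, and their part was not tested. Cxcl5 read 9.50, 0, 1.83, 82.99 and 14.2 CPM in C269, and its fold change of 1.49, SE 0.96, became -0.30 without library 29 (exact permutation p = 0.976 with it).

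Cxcl9 read 30.7, 29.1, 61.7, 85.03 and 56.1 CPM in CTRL and 31.5, 26.9, 19.3, 4.94 and 31.7 CPM in C269. The groups overlapped only through the 2 lowest CTRL libraries, and library 29 was the lowest of all (-1.18, SE 0.41, adjusted p = 0.739, and -0.94 without library 29; exact permutation p = 0.0476, adjusted 0.143). Cxcl10 and Cxcl11 ran from 12.5 to 66.7 and 0.918 to 41.5 CPM (-0.14, SE 0.38, and 0.49, SE 0.70). Xcl1 read 130.3, 119, 149.6, 204 and 277 CPM in C269, around the CTRL values (0.06, SE 0.24, exact permutation p = 1).

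Cxcl2 read 4522, 2140, 1525, 6335 and 3031 CPM in CD8 C269 (0.69, SE 0.35) and Cxcl1 536, 125, 93.3, 1207 and 518 CPM (0.56, SE 0.56). Both groups overlapped CTRL. The myeloid ligands Ccl3, Ccl4, Ccl6 and Ccl9 ran from 61.2 to 208, 154 to 457, 219.6 to 1137 and 46.2 to 174 CPM, and Ccl7, Ccl8 and Ccl12 from 20.2 to 158, 13.1 to 406 and 0.988 to 45.9. Ccl17, Ccl22 and Ccl24 ran from 0 to 14.9, 0.499 to 33.96 and 9.79 to 74.8 CPM. Cxcl13, Cxcl14, Cxcl16 and Cx3cl1 ran from 0 to 24.2, 5.20 to 26.9, 43.1 to 83.96 and 0 to 19.8 CPM. Ccl1, Ccl21a, Ccl25 and Cxcl15 ran from 0 to 9.12, 0 to 4.47, 0 to 5.20 and 0 to 7.98 CPM. None of these separated from CTRL.

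**Figure D4:**
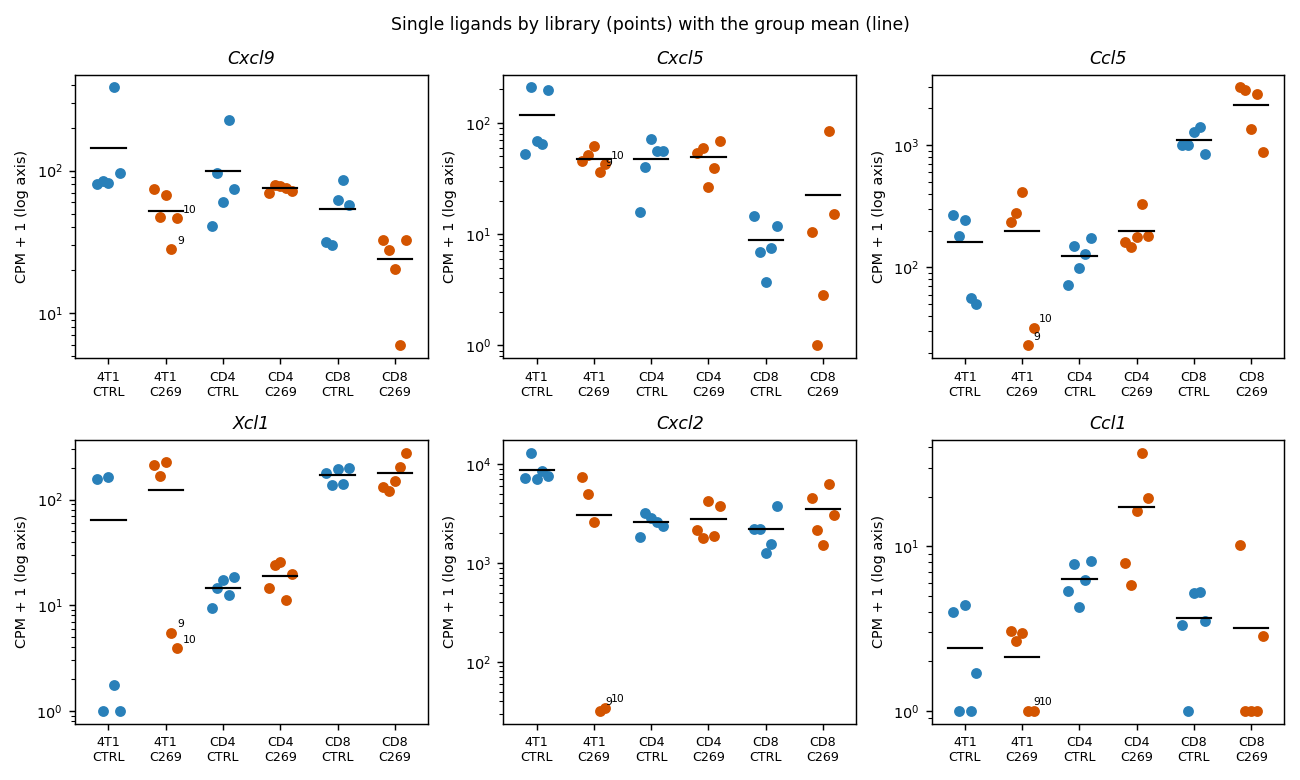
CPM + 1 (y axis, log scale) of 6 ligands in every library (points), by group (x axis), with the group mean as a line; libraries 9 and 10 are numbered. Ccl5 is highest in the CD8 groups, Cxcl2 in 4T1 CTRL, and the C269 points of Cxcl9 lie below all CTRL points in 4T1 and overlap them in CD8.

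Whether the C269 effect differed between populations was tested as an interaction in 1 fit of all 30 libraries. No member passed in any of the 3 contrasts by edgeR (0 of 30 each, where 0.0%, 0.00679% and 0.00679% of all 14731 genes passed for CD4 against CD8, 4T1 against CD4 and 4T1 against CD8). At an unadjusted p under 0.05 there were 1, 4 and 10 members, against 3.84%, 9.41% and 16.3% of all genes, and DESeq2 called 0, 0 and 1 (Ccl28). The smallest p was that of Ccl2 between 4T1 and CD8 (difference -3.10, SE 1.04, adjusted p = 0.141). DESeq2's call of Ccl28 rested on libraries 9 and 10, the only ones with a count. Without these libraries edgeR called 0 members for 4T1 against CD4 and against CD8, where 0.0% and 0.0063% of all 15880 genes passed. The median of the monocyte chemoattractants for 4T1 against CD8 was -2.53 with them and -1.885 without. A difference between the 4T1 and the CD8 effect was therefore not shown for any single ligand.

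The receptors were followed beside the ligands. Of 18 classical chemokine receptors, 15 were tested among the control fractions; of these Ccr1 and Cxcr2, receptors of myeloid cells, were higher in 4T1 CTRL than in CD4 CTRL (1.85 and 2.58; adjusted p = 0.0012 and 0.0284) and Ccr4 and Cxcr3, receptors of T cells, lower (-4.91 and -3.17; adjusted p = 0.00465 and 0.00744). Of all genes, 7.01% were higher and 5.71% lower in that comparison. Against CD8 CTRL, 4 of the 15 receptors were higher in 4T1 and 3 lower, where 22.7% and 17.9% of all genes were. Between CD8 and CD4 CTRL 1 was lower by edgeR (Ccr4, -3.46, adjusted p = 0.0183), where 9.09% of all genes were. Whether the receptors departed from these shares was not tested. The non-signalling relatives Ccrl2 and Ackr3, which bind or scavenge chemokines, were higher in 4T1 than in CD4 (1.78 and 2.13; adjusted p = 1.11e-05 and 0.0126), as was Ppbp of platelets (2.98, adjusted p = 0.0266). Il1b and Tnf, inducers of many ligands, were higher in 4T1 than in CD4 as well (1.69 and 0.88; adjusted p = 0.000472 and 0.0413). Ifng was higher in CD8 than in CD4 CTRL (2.70, adjusted p = 0.0254).

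Under C269, 0 receptors passed by edgeR in any population (of 15 tested in 4T1, 16 in CD4 and 11 in CD8), and 0 of the atypical receptors, platelet chemokines and upstream genes. In CD4 the smallest p among them was that of Cxcr6, the receptor of Cxcl16 (1.18, SE 0.21, adjusted p = 0.494), where it read 34.6, 36.1, 33.96, 44.5 and 66.1 CPM in CTRL and 97.8, 90.8, 108, 136 and 62.4 CPM in C269. The highest CTRL library lay above the lowest C269 library. Ccr2, the receptor of Ccl2, was next in CD4 (0.85, SE 0.27, adjusted p = 0.743). In CD8, Ccr3 stood at 2.30, 1.13, 0.898, 1.54 and 0 CPM in CTRL and 11.4, 15.5, 15.6, 3.95 and 6.34 CPM in C269 (3.10, SE 0.78, adjusted p = 0.739). In 4T1 the platelet chemokine Pf4 had the smallest p (-2.86, SE 0.83, adjusted p = 0.355). Of the 3 platelet genes followed, Pf4 and Ppbp were lower in 4T1 C269 and 1, Itga2b, was not. Itga2b averaged 4.92 ± 3.74 CPM in 4T1 CTRL and 4.96 ± 4.24 in 4T1 C269. Of the 15 receptors tested there, 7 were higher in C269 with all libraries and 13 without libraries 9 and 10. In the same fits 52.9% and 50.1% of all genes were higher. Without these libraries 0 receptors passed by edgeR, as did 0.0% of all genes.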

How the data were processed

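RNA-seq libraries of sorted 4T1 cells and bead-selected CD4+ and CD8+ T cells were used, 5 in each of 6 groups. Per the submitters' processing notes, the authors checked reads with FastQC, counted them with featureCounts and compared groups with DESeq2, and mm9 is the build named. No label or header names the aligner or the tool versions. Gene starts in the deposited tables were those of GRCm38 for 38 of 39 ligands. The deposited values were raw counts per gene and library, with, per the file headers, the authors' DESeq2 mean of normalized counts (a signal), log2 fold change, Wald statistic (a score), p-value and adjusted p-value. Columns were put in groups by the table and condition their headers name; they carry no replicate letters. All 30 columns were used.

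Rows of 7 ribosomal RNA genes, 3.05% of all counts (0.579% to 7.95% per library), were left out, and CPM were taken over the remaining 2005579 to 5176494 counts per library. A gene with few counts is measured with little precision at this depth. Counts were filtered with filterByExpr, scaled by TMM and tested with edgeR 4.0.16 (quasi-likelihood, limma 3.58.1, R 4.3.3), with Benjamini-Hochberg adjustment over all tested genes and a threshold of 0.05. Fits used the 10 libraries of a population for C269, the 15 control libraries between populations and all 30 for interactions. SE is the fold change divided by the square root of F. Exact permutation tests used log2(CPM + 1) for 4 ligands. The test was also run on simulated counts, and the outcome is not given here. No simulated library was made to stand apart from its group as libraries 9 and 10 did, so that case was not covered.

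The ligands and gene lists were chosen with earlier results of these data known. Every ligand with a mean of at least 5 CPM in a group is described, and values by library go to Cxcl9, Cxcl5, Ccl5 and Xcl1, to the 3 with the smallest p in each C269 comparison and to the 2 most abundant of each population. Other ligands shown by library were chosen after their values were seen. Alternatives were DESeq2 1.42.0, upper-quartile scaling, no filter on low counts, each library left out, a pseudocount of 0.5 and a minimum of 1 CPM. Added after the data were seen were fits without libraries 9 and 10 and fits of only the 2 control groups compared.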

Additional observations from a re-analysis of the deposited data

Results flagged for a closer look

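Each of the described ligands was looked at in each group of 5 libraries for 1 library far from the other 4, that is, a gap to the nearest one above 0.71 of the group's range. This held for 33 of 186 sets. The cut stands for about 1 in 20 only in normally distributed values, and it was applied to untransformed CPM, so no chance share can be given. Sets with the same value in all 5 libraries, such as Ccl28 in 4T1 CTRL, could not be picked out. Nor could libraries that lie apart together, such as 9 and 10. The sets share libraries, so they are not independent. In 4T1 CTRL, library 2 stood apart in Ccl3 at 891 CPM, Ccl4 at 1244 CPM, Cx3cl1 at 40.5 CPM and Cxcl2 at 13050.0 CPM. In 4T1 CTRL, library 4 stood apart in Ccl12 at 225 CPM and Cxcl9 at 382 CPM. In 4T1 CTRL, library 5 stood apart in Ccl11 at 237 CPM, Ccl2 at 1608 CPM, Cxcl12 at 567 CPM, Cxcl13 at 63.7 CPM and Cxcl14 at 395 CPM. In 4T1 C269, library 8 stood apart in Cxcl15 at 23.5 CPM. In CD4 CTRL, library 11 stood apart in Ccl11 at 31.1 CPM. In CD4 CTRL, library 14 stood apart in Ccl12 at 89.3 CPM. In CD4 C269, library 19 stood apart in Ccl5 at 332 CPM and Ccl8 at 363 CPM. In CD4 C269, library 20 stood apart in Ccl11 at 48.1 CPM, Ccl2 at 434 CPM, Cxcl12 at 131 CPM and Cxcl14 at 79.0 CPM. In CD8 CTRL, library 25 stood apart in Ccl2 at 162 CPM, Ccl24 at 49.0 CPM, Ccl4 at 415 CPM, Ccl7 at 133 CPM and Cxcl1 at 679.6 CPM. In CD8 C269, library 26 stood apart in Ccl1 at 9.12 CPM. In CD8 C269, library 27 stood apart in Ccl8 at 406 CPM and Cxcl15 at 7.98 CPM. In CD8 C269, library 28 stood apart in Ccl4 at 154 CPM, below the other 4. In CD8 C269, library 29 stood apart in Ccl11 at 52.4 CPM, Ccl2 at 585 CPM and Cxcl5 at 83.0 CPM. In CD8 C269, library 30 stood apart in Ccl21a at 4.47 CPM. All of these lay above the rest of their group except Ccl4 in library 28.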

How the results depend on the processing

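Of 64 fold changes followed, all kept their direction and side of the threshold under DESeq2 and upper-quartile scaling. Outside these 64, Cxcl5 (4T1 against CD4 CTRL), Cxcl11 (4T1 against CD8 CTRL) and Cxcl14 (CD8 against CD4 CTRL) missed the threshold in the fit of the 15 control libraries and passed with DESeq2 and without a filter on low counts. Without a filter 5 of the 64 came to pass, and in the fits of only the 2 groups compared 1 was lost (Ccl11). The number of ligands called in 4T1 under C269 was 0 and became 1 with DESeq2, both with all libraries and without libraries 9 and 10, where all genes called were 998 and 98 against 0. Without a filter, 1 ligand was called in CD4 (83 of all genes against 0) and 7 in CD8 (162 against 1); DESeq2 called 17 and 18 genes there. For CD8 against CD4 CTRL, leaving out 1 library gave 3 to 7 ligands against 5, and the fit of the 2 groups alone 10 (2823 genes against 1658). For 4T1 against CD4 CTRL, DESeq2 called 2600 and the fit of the 2 groups alone 1047 genes against 1679. The interaction of 4T1 and CD8 gave 1 ligand with DESeq2 (617 genes), and leaving out 1 library gave 0 to 2 permutation tests passing. Of the values with 1 library left out, 955 kept their side, 42 lost a call (8 fold changes) and 13 changed sign, all of folds that did not pass: Ccl5 in 4T1 (-0.065 to 0.59), Cxcl9 in CD4 (-0.60 to 0.11), Cxcl5 in CD4 (-0.19 to 0.25, with -0.0148, -0.00514, -0.0400 and -0.116 between), Cxcl5 in CD8 (-0.30 to 1.79), Xcl1 in CD8 (-0.16 to 0.17, with -0.00544, -0.0193 and -0.0120 between) and the Cxcl5 interaction of CD4 and CD8 (-1.69 to 0.35). The cause was not tested. No paired analysis was possible because the columns carry no replicate letters that would match libraries across groups.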
